A study of Drosophila melanogaster with 11 samples.

Results

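The genes described here are 41 genes of DNA damage sensing and DNA repair in Drosophila melanogaster. They were taken by symbol from a fixed list of 44 names. The count table holds 16034 gene entries, and the names mus309, mus210 and mus312 matched no symbol in it and are not analysed here, except that Blm, a further name of the gene mus309, is described with the partner genes. All 41 passed the filter on low counts in each of the comparisons below, and all 41 lay at the same position in the BDGP6 annotation as in the count table.

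RNA was sequenced from 2 larval tissues, the salivary gland and the wing disc, at the 3rd instar. Wild-type larvae were of the strain w1118, and mutant larvae were w; dCap-D3 c07081/c07081, that is, homozygous for a transposon insertion allele of dCap-D3, a condensin II subunit gene. Stocks were kept at 25 C, with no further treatment given in the labels. The salivary gland gave 3 libraries of each genotype, and the wing disc gave 3 of the wild type and 2 of the mutant. A salivary sample pooled 50 tissues and a wing sample 150, so a library is an average over many tissues. One allele in 1 genotype was studied, and the larvae carried it in every cell. The labels do not say that mutant and wild type shared a genetic background. The loss of dCap-D3 and other differences between the strains therefore cannot be told apart. The salivary libraries were made without strand information and the wing libraries with it, so tissue and library kind cannot be told apart. Exons of 23 of the 41 genes overlap an exon on the other strand, and salivary reads there cannot be assigned to 1 gene. In RNA from whole tissue, fewer cells of a type and less RNA per cell cannot be told apart either.

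Broken DNA ends are bound by a complex of Mre11, Rad50 and Nbs, which activates the kinase ATM, encoded by tefu in flies. Single-stranded DNA activates ATR, encoded by mei-41. These kinases act on the checkpoint kinases Chk1 (grp) and Chk2 (lok) and, through Chk2, on p53. Breaks are then rejoined by end joining or by homologous recombination, while damaged or mispaired bases are removed by excision pathways or reversed directly. Salivary gland cells copy their DNA in endocycles without dividing and hold polytene chromosomes, whereas wing disc cells divide.

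The libraries held 52483062 to 157639534 counts on named genes, and the 41 genes took 0.0149% to 0.0223% of them in the salivary gland and 0.171% to 0.258% in the wing disc. Levels are given as CPM, which are counts set to a common library size with edgeR's TMM scaling within each tissue. The mutated gene, Cap-D3 in the table, was at 4.83, 4.36 and 5.21 CPM in salivary wild type and at 0.0516, 0.0553 and 0.0664 CPM in salivary mutant. In wing discs it was at 17.1, 12.9 and 25.8 CPM in wild type and at 2.93 and 2.61 CPM in mutant, so the labels and the targeted gene go together in both tissues. The 12 salivary gland markers summed to 255000 to 415000 CPM in salivary and 172 to 695 CPM in wing libraries, and the 15 imaginal disc markers to 73.0 to 106 CPM and 748 to 2100 CPM. Markers of fat body, of which 11 of 14 were in the table, summed to 72800 to 110000 CPM in salivary wild type and 94300 to 151000 CPM in salivary mutant, and 4 of the 10 tested were called higher in the mutant. Wing wild-type replicate 3 stood apart from the other wing libraries and is described with the wing results. A gene was called where the Benjamini-Hochberg adjusted p of edgeR's quasi-likelihood test was at most 0.05, and log2 fold changes are given ± the standard error.

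In mutant salivary glands mre11 rose and phr, Pms2, rad50 and Parp fell. The rise of mre11 was 3.90-fold, and the falls were to 0.450 of wild type for phr, 0.440 for Pms2, 0.545 for rad50 and 0.700 for Parp. These 5 of 41 genes are 12.2%, and 10.7% of the 9004 genes tested were called, so the share of called genes was near the background. By direction, 1 of 41 was called higher against 5.71% of all genes, and 4 of 41 were called lower against 4.94%. The log2 fold changes of the 41 genes had a median of -0.51, and that of all genes tested was -0.04. A log2 fold change below 0 was found for 32 of 41, or 78.0%, against 53.9% of all genes. For 19 of 41 all 3 mutant libraries lay below all 3 wild-type libraries, which is 46.3% against 19.0% of all genes, and only mre11 lay above, against 17.4%. An unadjusted p under 0.05 was reached by 18 of 41, or 43.9%, against 29.4% of all genes. DESeq2 called 12 of 41, with 11 of them lower, against 23.2% of all genes. In the authors' deposited table a false discovery rate of at most 0.05 was held by 8 of 41, with 7 lower, against 16.5%. Of the 5 genes named above, mre11, phr and Pms2 were among these 8. In that table rad50 (0.0741) and Parp (0.362) did not pass.

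**Figure D1:**
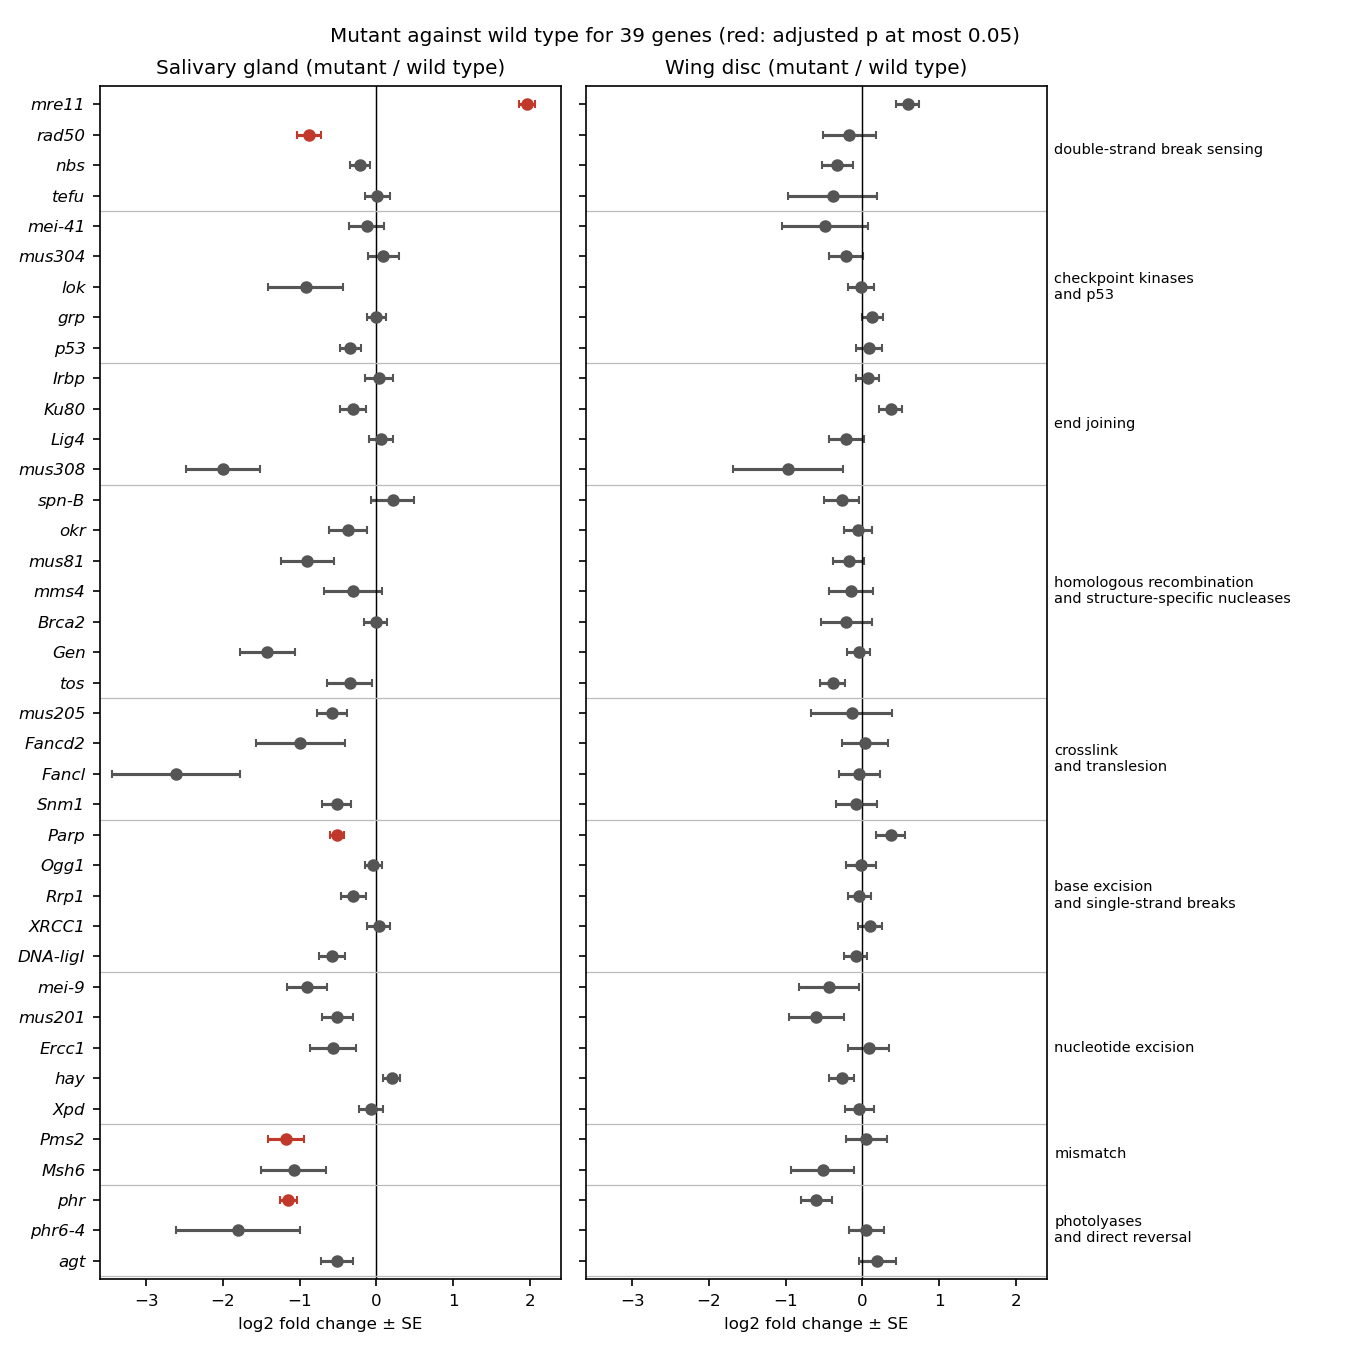
Log2 fold change of mutant over wild type (x axis) for 39 of the 41 genes (y axis, grouped by role), in salivary glands on the left and wing discs on the right. Points are fitted values, bars are standard errors, and red marks an adjusted p of at most 0.05: 5 genes are red on the left, with mre11 the only one above 0, and none on the right.

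Among the genes that sense broken ends, mre11 and rad50 moved in opposite directions in the salivary gland. The gene mre11 encodes the nuclease of the complex and lies on chromosome arm 2L at 11282090 to 11284335 on the plus strand. Its level was 3.35, 3.74 and 3.08 CPM in the wild-type libraries and 14.1, 13.0 and 12.7 CPM in the mutant libraries, from 177 to 206 counts and 762 to 937 counts. The mutant values were close to each other and far above the wild-type range. The log2 fold change was 1.96 ± 0.11 with an adjusted p of 0.000624, and with each of the 6 libraries left out in turn the adjusted p stayed between 0.00414 and 0.00996. An exon of mre11 overlaps one of Osi21 on the other strand over 9 bases, 0.447% of the exon length of mre11. Osi21 had 0 or 1 count in every salivary library. Ppt2, which ends 169 bases before mre11 and was looked up after its values were seen, had a log2 fold change of -0.24 ± 0.16 and an adjusted p of 0.383. The part of neighbouring genes in the rise of mre11 was not tested.

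The gene rad50 encodes the ATPase that tethers broken ends and lies on 2R at 22421013 to 22425482 on the plus strand. It was at 6.21, 6.0 and 5.36 CPM in wild type and at 3.78, 2.99 and 2.81 CPM in mutant, without overlap. Its log2 fold change was -0.88 ± 0.16 with an adjusted p of 0.0220. This call was kept when mutant replicate 1 was left out (adjusted p 0.0189) and lost when any of the other 5 libraries was, up to an adjusted p of 0.11. The gene nbs, whose product links the complex to ATM, was at 4.2, 4.4 and 3.9 CPM against 3.49, 3.32 and 3.99 CPM, and the ranges overlapped, with an adjusted p of 0.336. The gene tefu was at 8.38, 8.71 and 10.6 CPM against 7.80, 10.9 and 9.18 CPM, with a log2 fold change of 0.01 ± 0.16. Its libraries were intermixed.

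Per kilobase of exon, mre11 RNA stood to rad50 RNA as 1.09, 1.26 and 1.16 to 1 in the salivary wild-type libraries. In the mutant libraries the ratios were 7.53, 8.78 and 9.12. The ratio of mre11 to nbs went from 1.03, 1.10 and 1.02 to 5.21, 5.04 and 4.10, and that of rad50 to nbs from 0.945, 0.870 and 0.878 to 0.692, 0.574 and 0.449. For all 3 ratios the genotypes did not overlap. The RNAs of the complex were near parity per length in wild-type glands and were not in mutant glands.

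**Figure D2:**
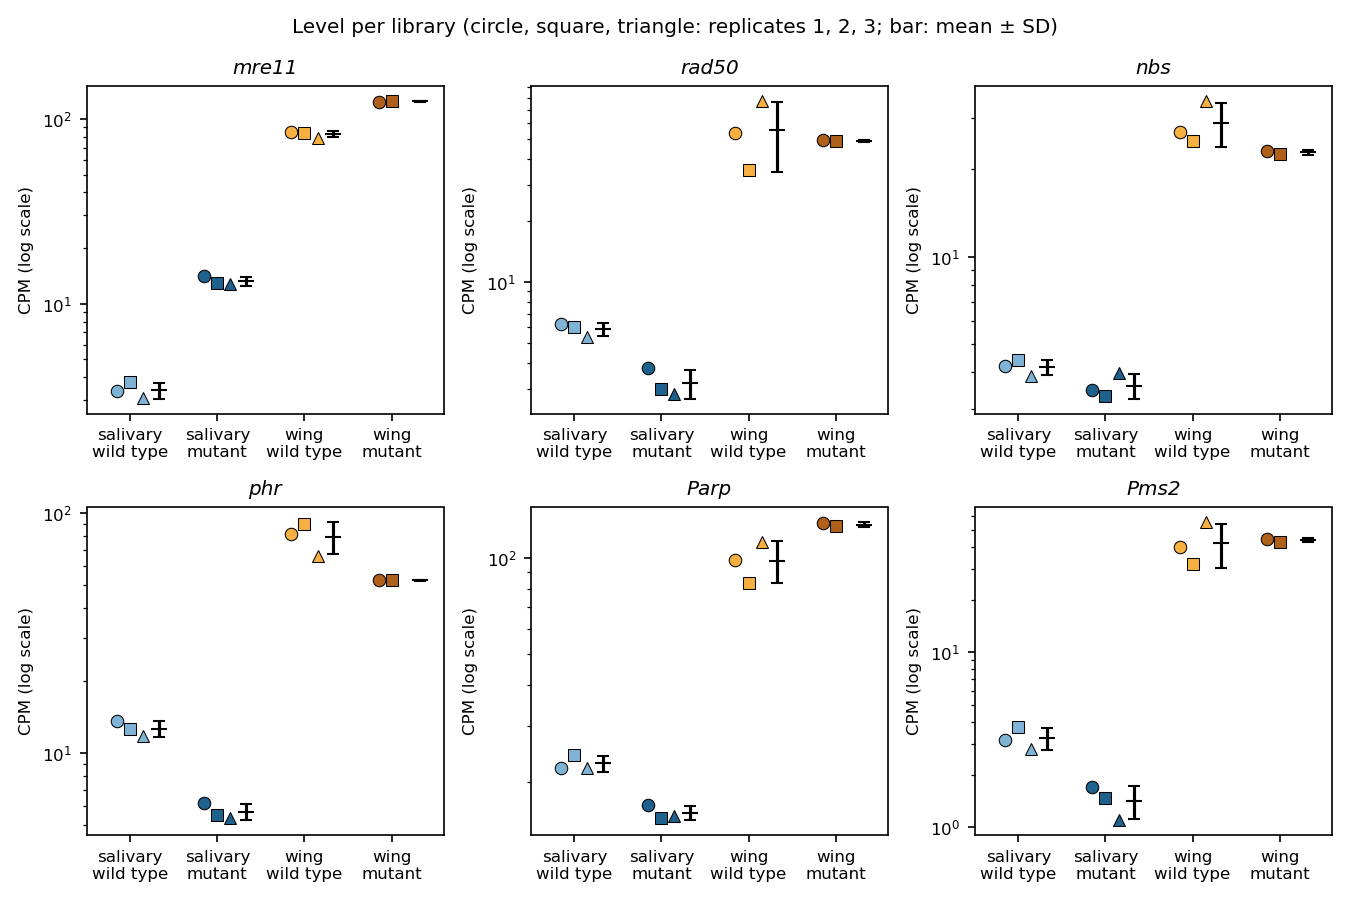
CPM on a log scale in each of the 11 libraries for the 3 genes of the end-sensing complex (top) and for phr, Parp and Pms2 (bottom), with the y range set for each gene. Circles, squares and triangles are replicates 1, 2 and 3, and bars are mean ± SD (n = 3, and n = 2 in wing mutant). The salivary mutant libraries lie above wild type for mre11 (12.7 to 14.1 against 3.08 to 3.74 CPM) and below it for rad50, phr, Parp and Pms2.

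None of the 5 checkpoint genes was called in the salivary gland. The Chk1 gene grp, the checkpoint gene with the highest level, was at 29.2, 25.2 and 22.7 CPM in wild type and at 28.7, 24.2 and 24.3 CPM in mutant. Its log2 fold change was 0.00 ± 0.13, and the libraries of both genotypes covered the same range. The ATR gene mei-41 was at 3.04, 1.93 and 2.16 CPM against 2.36, 2.02 and 2.14 CPM, and mus304, the gene of the ATR partner, gave a log2 fold change of 0.09 ± 0.20. The p53 gene was at 2.97, 3.25 and 3.01 CPM against 2.53, 2.37 and 2.42 CPM. Its ranges did not overlap, yet the log2 fold change of -0.34 ± 0.14 had an adjusted p of 0.170. Exons of p53 overlap the antisense RNA asRNA:CR46089 over 812 bases, 38.0% of the exon length, and in the salivary libraries reads of the pair cannot be told apart. The Chk2 gene lok was at 2.81, 2.36 and 1.69 CPM against 2.13, 0.747 and 0.764 CPM, with 1 mutant library inside the wild-type range and the other two below it.

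Of the 4 end-joining genes none was called. The genes Irbp and Ku80 encode the Ku70 and Ku80 proteins, which bind broken ends as a pair. Irbp was at 2.5, 2.07 and 2.87 CPM against 2.72, 2.45 and 2.42 CPM, a log2 fold change of 0.03 ± 0.18. Ku80 was at 3.24, 2.65 and 2.70 CPM against 2.54, 2.17 and 2.21 CPM, with all mutant libraries below wild type but an adjusted p of 0.268. The ligase gene Lig4 gave 0.06 ± 0.16. The gene mus308, whose product is DNA polymerase theta of the alternative end-joining route, was at 4.29, 3.93 and 2.54 CPM in wild type and at 1.48, 0.443 and 0.780 CPM in mutant. Its ranges were apart, the log2 fold change was -2.0 ± 0.48, and the adjusted p of 0.0518 missed the threshold. Without mutant replicate 1 the adjusted p was 0.0276 with a log2 fold change of -2.55, and DESeq2 on all libraries gave 0.000850.

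None of the 8 genes of homologous recombination and structure-specific nucleases was called, and 7 had a log2 fold change below 0. Gen, which encodes a nuclease that cuts Holliday junctions, was at 1.51, 1.18 and 1.13 CPM against 0.688, 0.360 and 0.382 CPM. Its ranges did not overlap. On the log2 scale the change was -1.42 ± 0.36 with an adjusted p of 0.0584, which passed the threshold without mutant replicate 1 (0.0327) and with DESeq2 (0.00365). The gene mus81, which encodes a nuclease subunit, gave -0.90 ± 0.34 with an adjusted p of 0.143, and all its mutant libraries lay below wild type. The other members described were the recombination gene spn-B (0.21 ± 0.28), the Rad54 gene okr (-0.37 ± 0.25), mms4, the partner of mus81 (-0.31 ± 0.38), Brca2 (-0.01 ± 0.15) and the exonuclease gene tos (-0.35 ± 0.29), and their ranges overlapped.

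All 4 genes of crosslink repair and translesion synthesis had a log2 fold change below 0, and none was called. Fancd2, whose product is the central protein of the Fanconi anaemia pathway, was at 1.75, 1.24 and 1.11 CPM against 1.27, 0.512 and 0.282 CPM. The genotypes overlapped because mutant replicate 1 lay within the wild-type range. Fancl, the gene of the ligase that modifies Fancd2, was at 0.486, 1.84 and 0.226 CPM against 0.155, 0.111 and 0.149 CPM. Its log2 fold change of -2.61 ± 0.83 was the lowest of the 41 and had an adjusted p of 0.102, and wild-type replicate 2, with 101 counts, was 4.64-fold above the mean of the other two wild-type libraries. Without wild-type replicate 2 the lowest log2 fold change of the 41 genes was -1.92. That library was also the only salivary one with counts on asRNA:CR44192 (20 counts), which shares 24 exon bases with Fancl on the same strand. The polymerase zeta gene mus205 (-0.58 ± 0.19, adjusted p 0.11) and the nuclease gene Snm1 (-0.52 ± 0.19, adjusted p 0.136) had ranges that did not overlap.

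Among the genes of base excision and single-strand breaks, Parp fell. Parp encodes the poly(ADP-ribose) polymerase that marks DNA breaks and lies on 3R at 3461351 to 3587054 on the minus strand. It was at 22.2, 24.4 and 22.1 CPM in wild type and at 17.0, 15.5 and 15.7 CPM in mutant, without overlap. The fall was to a log2 fold change of -0.51 ± 0.09 with an adjusted p of 0.0182. The call was kept without mutant replicate 1 or wild-type replicate 1 and lost without any of the other 4 libraries, up to an adjusted p of 0.119. The DNA ligase gene DNA-ligI gave -0.58 ± 0.17 with an adjusted p of 0.0780 and ranges apart. The glycosylase gene Ogg1 (-0.04 ± 0.11), the AP endonuclease gene Rrp1 (-0.30 ± 0.16) and the scaffold gene XRCC1 (0.03 ± 0.15) overlapped between genotypes.

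Of the 5 nucleotide excision genes none was called. Those of highest level were hay and Xpd, which encode the helicases of the transcription and repair factor TFIIH. The gene hay was at 8.93, 9.43 and 7.89 CPM against 9.13, 10.6 and 10.4 CPM, a log2 fold change of 0.20 ± 0.11, and the ranges overlapped. Xpd was at 7.37, 5.34 and 5.82 CPM against 6.60, 5.52 and 5.48 CPM. The Xpd libraries were intermixed. The nuclease genes mei-9 (-0.90 ± 0.26, adjusted p 0.0781), mus201 (-0.51 ± 0.20, adjusted p 0.150) and Ercc1 (-0.57 ± 0.30, adjusted p 0.262) had all mutant libraries below wild type. Exons of Ercc1 overlap Ciao1 on the other strand over 86 bases, 9.05% of the exon length. Ciao1 had means of 82.7 and 77.1 CPM in wild type and mutant, against 1.43 and 0.965 CPM for Ercc1. The part of Ciao1 in the level of Ercc1 was not tested.

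Among the 3 mismatch repair genes, Pms2 fell. Pms2 encodes a MutL subunit and lies on 2R at 15368074 to 15371520 on the minus strand. It was at 3.17, 3.73 and 2.80 CPM in wild type and at 1.70, 1.47 and 1.10 CPM in mutant, and the ranges were apart. The log2 fold change was -1.18 ± 0.23 with an adjusted p of 0.0287, a call that was kept without mutant replicate 1 (0.0384) and lost without any of the other 5 libraries, up to 0.121. Pms2 overlaps unc-5 on the other strand over 227 exon bases, 7.47% of its exon length, and unc-5 had 363, 143 and 104 counts in wild type and 120, 62 and 49 in mutant. Reads over that stretch cannot be assigned in these libraries, and the part of unc-5 in the fall of Pms2 was not tested. Msh6 encodes a subunit of the protein that finds mismatches. Its log2 fold change was -1.08 ± 0.42, and it was not called. Msh6 overlaps FucTA on the other strand over 163 exon bases, 3.995% of its exon length. FucTA had 1488, 1379 and 2022 counts in wild type and 947, 1791 and 1249 in mutant. The part of FucTA in the level of Msh6 was not tested.

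Among the genes of direct reversal, phr fell. It encodes the photolyase that repairs cyclobutane pyrimidine dimers with the energy of light, and it lies on 2R at 7825289 to 7827319 on the plus strand. It was at 13.6, 12.5 and 11.7 CPM in wild type and at 6.17, 5.49 and 5.35 CPM in mutant. The lowest wild-type library was far above the highest mutant library. The log2 fold change was -1.15 ± 0.11 with an adjusted p of 0.00277, and with each of the 6 libraries left out in turn it stayed between 0.00882 and 0.0272. An exon of phr overlaps Prosalpha1 on the other strand over 17 bases, 0.863% of its exon length, and Prosalpha1 is not analysed here. The other photolyase gene, phr6-4, had 27, 27 and 12 counts against 13, 7 and 1, and the alkyltransferase gene agt gave -0.51 ± 0.21 with an adjusted p of 0.161. Exons of agt overlap twr on the other strand over 379 bases, 29.3% of the exon length. The means of twr were 242 CPM in wild type and 204 CPM in mutant, against 2.17 and 1.52 CPM for agt. All mutant libraries of twr lay below wild type, and it was not called. The part of twr in the level of agt was not tested.

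Levels in salivary mutant replicate 1 were nearer to wild type than in the other mutant libraries for part of the genes. There 6 of 41 genes were more than 2-fold above the mean of mutant replicates 2 and 3, among them Fancd2 (2.96-fold), lok (2.71-fold), phr6-4 (2.56-fold), mus308 (2.31-fold) and Msh6 (2.31-fold). Without that library 10 of 41 were called, with Gen, lok, Msh6 and mus308 among those added to the former 5. Without any one of the other 5 libraries 2 or 3 were called, and mre11 and phr were among them each time. For these counts, and for the 6 genes over 2-fold, the share of all genes is not given, so they describe these genes alone. The 13 markers of dividing cells in the table summed to 99.8, 97.2 and 66.3 CPM in salivary wild type and to 74.5, 40.2 and 26.8 CPM in mutant, with mutant replicate 1 again the highest mutant library. All 13 had a log2 fold change below 0, with a median of -0.96, and none was called. No dividing-cell marker was at 0 in any salivary library. The 13 markers of replicating cells summed to 165, 154 and 169 CPM against 159, 177 and 149 CPM, with overlap. Imaginal disc markers summed to 106, 98.7 and 93.0 CPM against 79.9, 73.0 and 73.5 CPM (2 of 15 called, both lower), and 6 tracheal markers to 102, 87.5 and 84.5 CPM against 58.6, 44.1 and 36.8 CPM (2 called, both lower). The sums of the gut markers were 738, 5250 and 58.9 CPM for wild type and 42.8 to 105 CPM for mutant, with 1 of the 5 tested called, lower. Of 11 hemocyte markers tested 4 were called lower and 1 higher, and of 10 muscle markers 2 were called lower. The part of such cells in the lower levels of the repair genes was not tested. Of the 10 fat body markers tested, 8 had a log2 fold change above 0, the direction of mre11, with a median of 0.50 and 4 called higher. The disc and tracheal markers had medians of -0.63 and -0.93. In the wing, 1 of the 9 fat body markers tested had a log2 fold change above 0 and 8 below, with a median of -1.13 and none called. The part of fat body cells in the rise of mre11 was not tested.

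**Figure D3:**
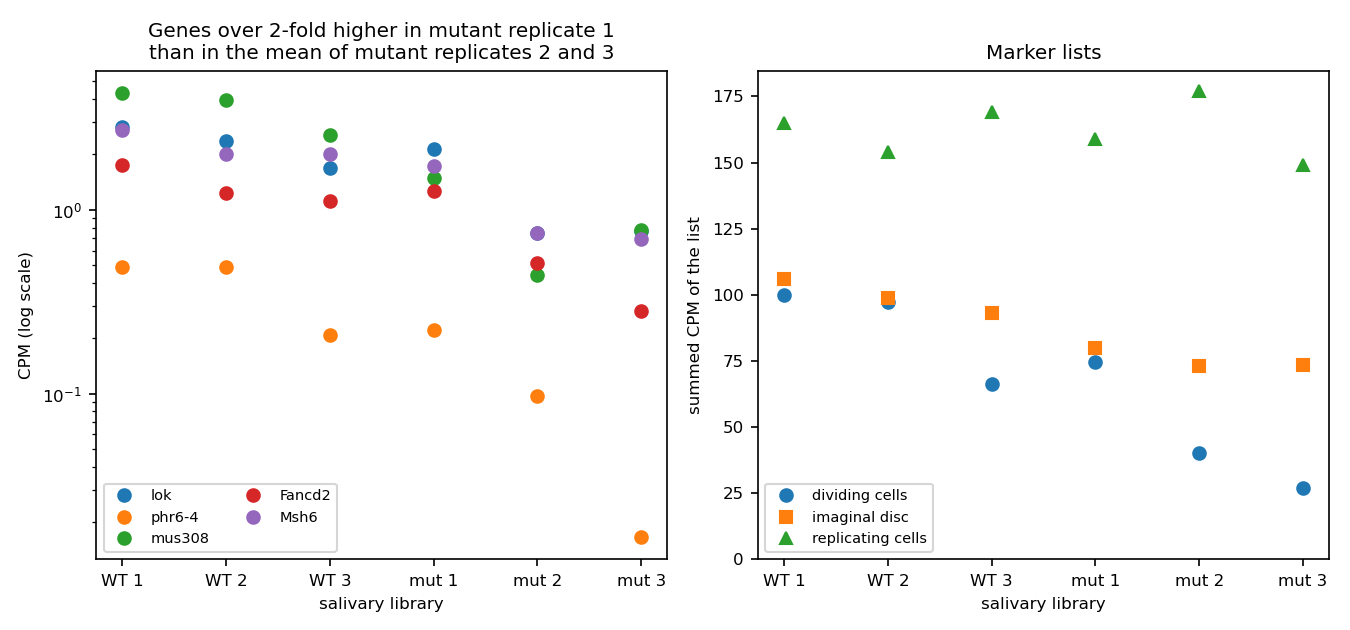
Left, CPM on a log scale in the 6 salivary libraries for 5 genes that were over 2-fold higher in mutant replicate 1 than in the mean of mutant replicates 2 and 3. Right, summed CPM of the markers of dividing cells, imaginal disc and replicating cells in the same libraries: the dividing-cell sum was 74.5 CPM in mutant replicate 1 and 40.2 and 26.8 CPM in mutant replicates 2 and 3.

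In wing discs no gene of the 41 was called in the mutant, where 0.485% of the 9699 genes tested were. An unadjusted p under 0.05 was reached by 2 of 41, mre11 and phr, or 4.88% against 9.53% of all genes. DESeq2 called the same pair (6.01% of all genes), and so did the authors' deposited table (13.1%), each with mre11 higher and phr lower. The median log2 fold change was -0.08, and that of all genes was -0.03. A log2 fold change below 0 was found for 29 of 41, or 70.7% against 54.3% of all genes. The ranges of the genotypes did not overlap for 10 of 41 genes, or 24.4% against 26.1% of all genes, with 4 higher (14.4% of all genes) and 6 lower (11.7%) in the mutant. None of the 13 dividing-cell and 13 replicating-cell markers was called in the wing, with medians of -0.07 and -0.22. Of 10 muscle markers 1 was called, lower, and all 10 had a log2 fold change below 0, with a median of -1.96. Of 10 hemocyte markers tested 9 were below 0 and 1 above, with a median of -1.74 and none called. The part of such cells in the wing values was not tested.

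Wing mre11 was at 85.3, 83.9 and 79.0 CPM in wild type and at 124 and 125 CPM in mutant. Both mutant libraries lay above all wild-type libraries. The log2 fold change was 0.59 ± 0.15 with an adjusted p of 0.270 in edgeR and 6.60e-05 in DESeq2. Osi21 had 0 to 6 counts in the wing libraries, against 5121 to 13438 counts for mre11. Wing phr was at 81.9, 89.9 and 66.3 CPM in wild type and at 52.3 and 52.6 CPM in mutant, again without overlap. Its log2 fold change was -0.60 ± 0.20 with an adjusted p of 0.407 in edgeR and 0.0498 in DESeq2. Across the salivary and the wing comparison, which share no library, 1 of 41 genes, mre11, had mutant ranges above wild type in both tissues, against 4.07% of the genes tested in both. Ranges below wild type in both were found for phr and DNA-ligI, 2 of 41, against 3.68%.

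The other genes of the end-sensing complex did not follow mre11 in the wing. The gene rad50 was at 53.6, 35.5 and 77.3 CPM against 49.5 and 48.9 CPM, with the mutant inside the wild-type range. The gene nbs was at 26.9, 25.0 and 34.4 CPM against 23.2 and 22.6 CPM, a log2 fold change of -0.33 ± 0.20 with an adjusted p of 0.883. Its mutant libraries lay below wild type. Per kilobase of exon, mre11 stood to rad50 as 3.22, 4.78 and 2.07 in wild type and as 5.05 and 5.18 in mutant. The ratio of mre11 to nbs was 4.09, 4.34 and 2.96 against 6.88 and 7.14. The mutant ratios were above the wild-type ones for both pairs. The wild-type ratios of mre11 to rad50 spread from 2.07 to 4.78, and the highest was near the mutant ratios. The exon lengths are 2013 bases for mre11 and 4072 for rad50, and the wing wild-type libraries differed by exon length, as described below.

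Among other wing values, Parp was at 98.2, 83.1 and 112 CPM in wild type and at 128 and 125 CPM in mutant, so that its mutant libraries lay above wild type, where in the salivary gland they lay below. Ku80 was likewise at 23.5, 25.8 and 27.4 CPM against 32.8 and 33.1 CPM. The adjusted p was 0.747 for Parp and 0.553 for Ku80. Irbp was at 16.8, 15.5 and 17.9 CPM against 17.7 and 17.4 CPM, and p53 was at 25.8, 26.6 and 21.1 CPM against 25.7 and 26.0 CPM, both with overlap. Pms2 was at 39.8, 31.9 and 55.2 CPM against 44.5 and 42.9 CPM, so the mutant lay inside the wild-type range. The gene grp was at 400, 351 and 388 CPM against 411 and 422 CPM, with a log2 fold change of 0.13 ± 0.14. The homologous recombination group had all 8 log2 fold changes below 0, from -0.39 to -0.05, with none called. Without wild-type replicate 3, okr (0.04) and Brca2 (0.06) of this group were above 0, and mms4 (0.05 without wild-type replicate 2) and Gen (0.02 without mutant replicate 2) also changed sign. In the same group Gen was at 36.1, 37.6 and 37.5 CPM against 37.4 and 34.0 CPM.

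Wing wild-type replicate 3, numbered 59 in the labels where the other wing libraries are numbered 28 to 31, and the deepest of the 11, differed from replicates 1 and 2 by exon length. Against the mean of those replicates it was 3.70-fold higher for mus308 (26.7, 19.8 and 86.2 CPM), 2.82-fold for mei-41 (20.5, 14.8 and 49.8 CPM) and 2.76-fold for tefu (52.6, 31.2 and 116 CPM). These genes have exon lengths of 6420, 7899 and 8416 bases. The next were mus205 (6750 bases, 2.56-fold) and mei-9 (3606 bases, 2.03-fold), while mms4 (1138 bases) was at 18.1, 21.6 and 11.8 CPM. Over the 41 genes the rank correlation of exon length with the deviation of replicate 3 was 0.93, and over 9524 genes it was 0.81. Between replicates 1 and 2 the rank correlation of exon length with the ratio of replicate 2 to replicate 1 was -0.81 over the 41 genes and -0.57 over all. Between the wing mutant libraries it was -0.34 over the 41 genes, and between pairs of salivary libraries of 1 group it lay between -0.21 and 0.04. These are correlations across genes of the same libraries and are given as descriptions.

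Without wing wild-type replicate 3 the median log2 fold change of the 41 genes was -0.01 in place of -0.08, and 21 genes instead of 29 were below 0. The rank correlation of the wing log2 fold change with exon length went from -0.38 to 0.49. No gene was called in that comparison either. The values for mre11 (0.53 ± 0.08, adjusted p 0.137) and phr (-0.74 ± 0.11, adjusted p 0.127) were close to those with all libraries. Those for several long genes changed sign: tefu went from -0.39 to 0.26, mei-41 from -0.49 to 0.17, mus205 from -0.14 to 0.45 and rad50 from -0.17 to 0.13. The sign for these genes turned on a single library. Other long genes moved towards 0 but stayed below it, with mus308 going from -0.97 to -0.06, mus201 from -0.60 to -0.25 and Msh6 from -0.52 to -0.13.

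**Figure D4:**
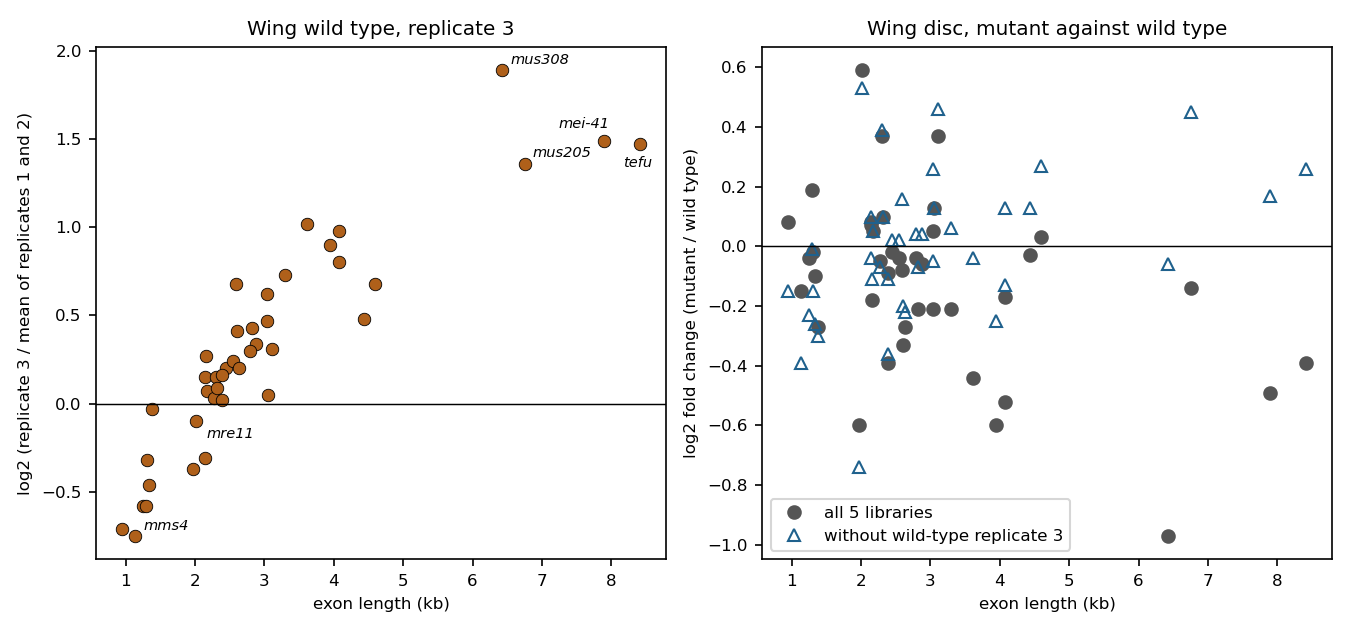
Left, log2 ratio of wing wild-type replicate 3 to the mean of replicates 1 and 2 (y axis) against exon length in kilobases (x axis) for the 41 genes, with a rank correlation of 0.93. Right, wing log2 fold change of mutant over wild type against exon length, with all 5 libraries (grey circles) and without wild-type replicate 3 (open triangles): the long genes tefu and mei-41 move from below to above 0.

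Whether the mutant effect differed between the tissues was tested with an interaction term over all 11 libraries. Of the 41 genes mre11 was called, and 0.858% of the 10835 genes tested were. Its effect was smaller in the wing by 1.51 ± 0.17 on the log2 scale (wing minus salivary -1.51), with an adjusted p of 0.00742. With 1 library left out at a time the adjusted p ran from 0.00580 to 0.0800, and the call was lost without wing mutant replicate 1 (0.0798) or replicate 2 (0.0800). The difference for Parp was 0.74 ± 0.23 with an adjusted p of 0.212, and without wing wild-type replicate 3 it was 0.93 with an adjusted p of 0.0267. That for Pms2 was 1.07 ± 0.37 with 0.251, for Gen 1.23 ± 0.34 with 0.152, for Ku80 0.53 ± 0.21 with 0.329 and for phr 0.42 ± 0.19 with 0.382. DESeq2 called 6 of 41, Gen, hay, Ku80, mre11, Parp and Pms2, against 5.75% of all genes.

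Comparing the wild-type tissues with each other, the repair genes were higher in wing discs almost throughout. Of the 41, 37 were called higher in wing and none lower, or 90.2% against 40.2% of the 9718 genes tested, with 30.2% of all genes lower. At least 2-fold higher and called were 36 of 41, or 87.8% against 34.3% of all genes. The median log2 difference, wing over salivary, was 2.03 and that of all genes 0.28. The ranges were apart for 40 of 41, all with wing higher, against 43.7% of all genes. Without wing wild-type replicate 3, which differed by exon length, the median was 1.85 and that of all genes 0.16. The rank correlation with exon length over the 41 genes went from -0.04 to -0.31, and Brca2 changed sign (-0.03). The call for tefu was kept in 3 comparisons with 1 library left out and lost in the others, up to an adjusted p of 0.0886. Since the library kind differs between the tissues, and all counts are relative to very abundant salivary transcripts, the scaling bears on the size of these differences. With library size alone the median of all genes was 1.55 and all 41 were called, and with size factors of the RLE kind it was 0.03 and 37 were called. This comparison uses the wild-type libraries of both mutant comparisons.

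The genes mms4, lok and Gen were among the 4 with the largest called differences between the tissues. On the CPM scale set over the 6 wild-type libraries, mms4 was at 0.941, 0.731 and 0.471 CPM in salivary glands and at 11.5, 13.7 and 8.10 CPM in wing discs, a log2 difference of 3.95 ± 0.37 (adjusted p 0.000263). The Chk2 gene lok was at 4.19, 3.52 and 2.69 CPM against 47.8, 40.9 and 54.8 CPM, a log2 difference of 3.79 ± 0.25 (adjusted p 0.000117). For both genes every wing library lay far above every salivary library. Gen was at 2.26, 1.76 and 1.80 CPM against 23.0, 23.9 and 25.7 CPM (3.64 ± 0.19, adjusted p 9.72e-05). Msh6, Fancd2 and mre11 had 3.64, 3.62 and 3.38. The 4 genes not called were Fancl (1.83 ± 0.74, adjusted p 0.0648), Brca2 (0.32 ± 0.30, adjusted p 0.380), Lig4 (0.27 ± 0.23, adjusted p 0.326) and Ogg1 (0.23 ± 0.17, adjusted p 0.270).

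**Figure D5:**
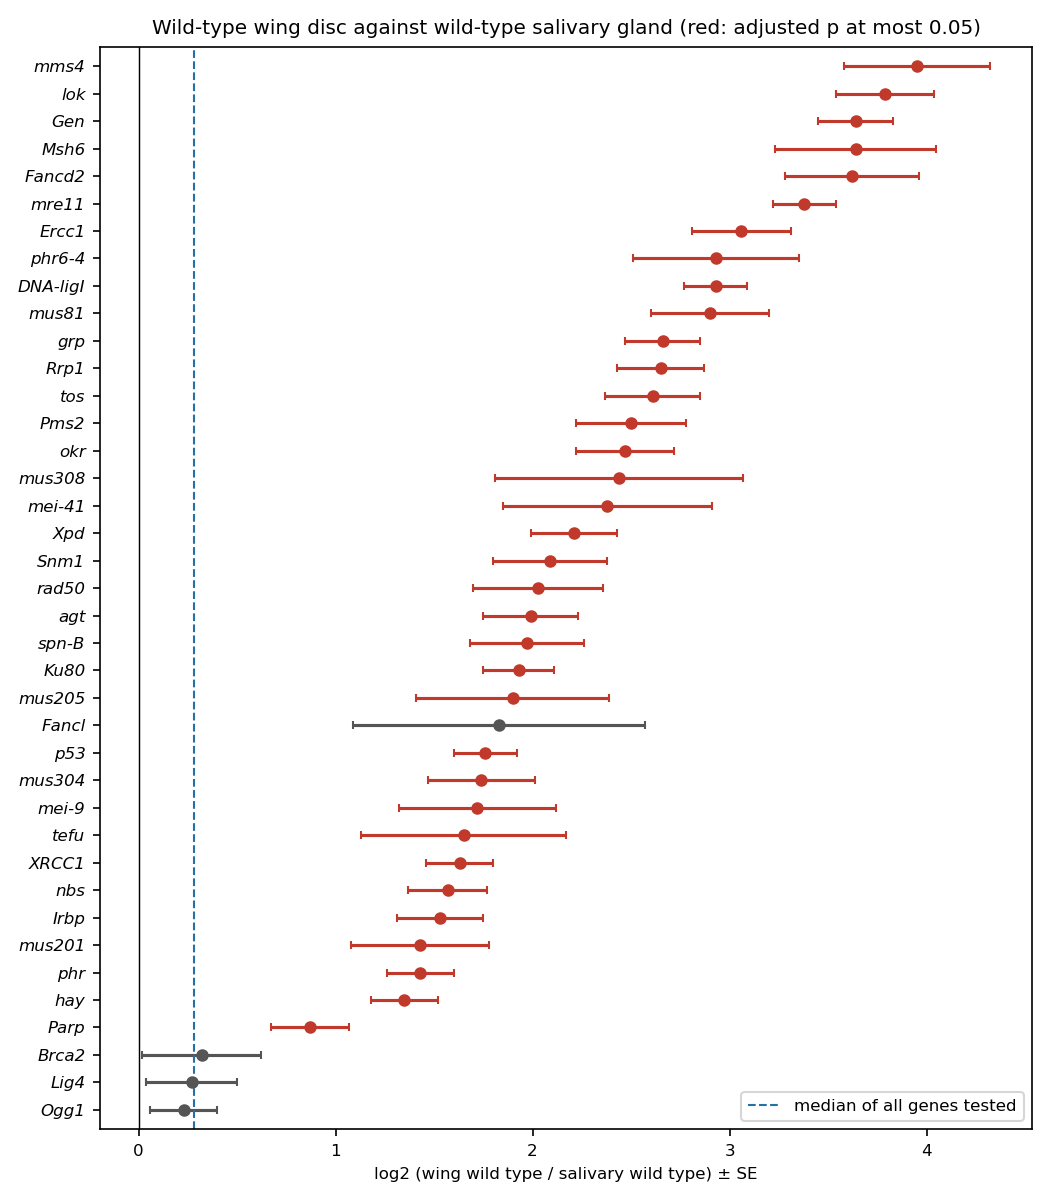
Log2 ratio of wild-type wing disc to wild-type salivary gland (x axis) for 39 of the 41 genes (y axis, sorted), with standard errors. Red marks an adjusted p of at most 0.05 (35 of those shown) and the dashed line the median of all genes tested (0.28); mms4 is highest with 3.95 and Ogg1 lowest with 0.23.

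By role, mismatch repair had the highest median log2 difference between the tissues, 3.64 over 3 genes. Homologous recombination followed with 2.54 over 8 genes, checkpoint genes with 2.38 over 5 and crosslink repair with 2.0 over 4. The medians were 1.99 for direct reversal, 1.84 for end sensing, 1.73 for end joining, 1.72 for nucleotide excision and 1.63 for base excision. The mismatch median was that of Msh6 and the checkpoint median that of mei-41. These long genes were 1.97-fold and 2.82-fold higher in wing wild-type replicate 3 than in the other wild-type wing libraries. Medians by role without that library are not given. The markers of dividing cells were all called higher in the wing, 13 of 13 with a median of 3.76, and so were 13 of 13 markers of replicating cells with a median of 2.75. Their part in the levels of the repair genes was not tested.

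Levels per kilobase of exon differed widely among the 41 genes. In salivary wild type grp was highest with 8.43 CPM per kilobase, followed by Rrp1 with 7.47, Parp with 7.36 and phr with 6.39, and the median of the 41 was 1.09. Lowest were phr6-4 with 0.182, mus205 with 0.284, Fancd2 with 0.298 and mei-41 with 0.301. In wing wild type grp (124) and Rrp1 (109) were again highest, followed by mre11 (41.1) and phr (40.3), with a median of 11.1, and mus205 was lowest (2.44). The gene mre11 stood 11th of 41 in salivary wild type, with 1.69 ± 0.166 CPM per kilobase (SD, n = 3), and 2nd in salivary mutant, with 6.57 ± 0.373. The gene phr went from the 4th place (6.39 ± 0.475) to the 7th (2.88 ± 0.224).

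Of 63 measured partner genes of the same pathways, taken from 7 lists of genes outside the 41, 4 were called in the salivary mutant, or 6.35% against 10.7% of all genes tested. Of 16 measured genes of replication protein A, end trimming and helicases, 2 were called in the salivary gland, both lower. Top3alpha, a topoisomerase that works with the Blm helicase, was at 4.81, 5.20 and 4.42 CPM against 3.11, 3.13 and 2.76 CPM (-0.68 ± 0.13, adjusted p 0.0272). RPA2, a subunit of the single-strand binding protein, was at 8.16, 6.98 and 7.43 CPM against 5.42, 4.66 and 3.95 CPM (-0.69 ± 0.15, adjusted p 0.0374). For both genes the genotypes did not overlap, and each call was kept in only 1 of the 6 comparisons with a library left out. Blm gave -0.47 ± 0.19 with an adjusted p of 0.158. Among 11 measured genes listed with the checkpoint clamp, loader and mediators, 1 was called, CG6812 (1.05 ± 0.17, adjusted p 0.0167), which is a sideroflexin gene in RefSeq and stands in the list by mistake. CG6812 is included in the 63 genes and the 4 calls above, and no other gene of that list was called.

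None was called among the 4 measured recombination partners and 5 genes of the Smc5/6 complex. The same held for 14 genes listed with the excision and mismatch pathways and 5 genes listed with the translesion polymerases. Of the 8 measured genes of p53 and damage-induced death, 1 was called. It was egr, the gene of the tumour necrosis factor ligand Eiger, at 14.2, 8.05 and 8.15 CPM in wild type and 41.7, 25.3 and 36.8 CPM in mutant (1.77 ± 0.30, adjusted p 0.0195). The ranges were apart, and the call was kept in 3 of 6 comparisons with a library left out, up to 0.0819. The death genes rpr (0.02 ± 0.48) and hid (-0.39 ± 0.16, adjusted p 0.164) and Xrp1, which is induced after DNA damage (0.09 ± 0.12), were not called. In the wing no gene of any of these 7 lists was called, where 0.485% of all genes were. Median log2 fold changes of the lists ran from -0.74 (Smc5/6) to 0.08 (p53 and death) in the salivary gland and from -0.20 to 0.08 in the wing.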

How the data were processed

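RNA-seq counts per gene were available for 11 libraries in 4 groups. The authors deposited raw counts, and the submitters' processing notes name the build BDGP6, HTSeq 0.6.1, TopHat2 2.0.8b, BWA, Picard 1.119, Trim Galore 0.3.3 and FastQC 0.11.3, with no order. Whether counting used strand is not stated there. For each tissue the authors also deposited a table whose columns, per the file headers, are the false discovery rate, the p-value, a likelihood ratio score, and the log2 values of the fold change and of the mean CPM. Entries without a symbol were named by exact position in the Ensembl annotation, and 176 entries that stayed unnamed, with 0.000201% to 0.000607% of counts, were left out.

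Genes passed edgeR's filterByExpr (minimum count 10, total 15) in each comparison. The quasi-likelihood test of edgeR 4.0.16 (R 4.3.3) was fitted on all genes, for each tissue alone, for the interaction over all libraries and for the 6 wild-type libraries, with Benjamini-Hochberg adjustment over all genes tested. DESeq2 1.42.0, other scalings, filters and 1 model over all libraries were alternatives. The salivary, wing and wild-type tissue tests were checked on simulated counts. These counts held no deviation by exon length such as that of wing wild-type replicate 3, so the check does not bear on it. Exon lengths are unions over the annotated transcripts, and ratios between libraries used a pseudocount of 0.05 CPM. A count of 0 allows up to 3 counts, 0.0176 to 0.0545 CPM, for counting error only. Within groups, no pair of libraries was identical, and chi-square over its degrees of freedom was 16.8 to 1330. Replicate numbers follow the order of the samples, and the labels do not say that samples came from separate cultures, so p-values measure only the spread between these samples.

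The members, the lists and the tests were chosen with earlier results of these data known. Values per library are given for called members, for mre11, rad50, nbs, p53, tefu, mei-41, Ku80 and Irbp, for the member of highest CPM in each role without a call, and for the 4 largest called differences between tissues. Partner genes are named where called in a mutant comparison, and Blm, rpr, hid and Xrp1 are named outside that rule. Other values per library or count, and the members named for standing apart within a group, were picked after they were seen. Values of 2 members by name are not reported here, and these members are kept in the counts and medians.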

Additional observations from a re-analysis of the deposited data

Results flagged for a closer look

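The mutant effect on mre11 differed between the tissues by an interaction test: the log2 fold change in the wing minus that in the salivary gland was -1.51, with an adjusted p of 0.00742 in edgeR. The mutant libraries were above wild type in 3 of 3 salivary and 2 of 2 wing cases. The call was lost without wing mutant replicate 1 (adjusted p 0.0798) or replicate 2 (0.0800), where 1 wing mutant library remained and was assumed to vary like the other groups. The cause was not tested.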

How the results depend on the processing

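The number of salivary calls among the 41 genes, 5 in the main test, was 5 with size factors of the RLE kind, with no filter, without the 10 most abundant genes and in 1 model over all libraries. It was 12 with DESeq2, 2 with library size alone, 8 by the authors' deposited table, and 2 among the 18 genes with no exon overlap on the other strand. Leaving out 1 library gave 2 to 10. The wing number, 0 in the main test and 0 to 0 with 1 library left out, was 2 with DESeq2 and 2 in the authors' deposited table. The interaction number, 1 in the main test, was 6 with DESeq2 and 0 to 3 with 1 library left out. Between wild-type tissues it was 35 to 41 under all alternatives, against 37. Where the share of all genes called is not given above, a count describes these genes alone. The calls for mre11 and phr in the salivary gland were kept under every alternative run on all genes. Among named genes, values near 0 changed sign. In the wing Pms2 was -0.05 in 1 model and -0.01 with library size alone, Irbp was -0.01 in 1 model, and Fancd2 was -0.07 in 1 model, -0.00 with DESeq2 and -0.04 with library size alone.

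Leaving out 1 library at a time changed the sign of 10 of the 41 salivary and 22 of the 41 wing log2 fold changes. Among them were salivary tefu (-0.09 to 0.13), mei-41 (-0.26 to 0.09), Irbp (-0.09 to 0.15), grp (-0.08 to 0.10) and Xpd (-0.16 to 0.07), and wing rad50 (-0.42 to 0.13), Pms2 (-0.13 to 0.26), p53 (-0.04 to 0.14), tefu (-0.74 to 0.26), mei-41 (-0.81 to 0.17), Fancd2 (-0.18 to 0.27), Gen (-0.11 to 0.02), Xpd (-0.14 to 0.04), mus205 (-0.47 to 0.45), Brca2 (-0.43 to 0.06), Snm1 (-0.22 to 0.16), Ercc1 (-0.15 to 0.24), mms4 (-0.39 to 0.05), okr (-0.17 to 0.04), agt (-0.01 to 0.33) and lok (-0.11 to 0.02). The cause was not tested. No paired analysis was possible because the labels give library numbers and no replicate numbers shared between groups. With 2 wing mutant libraries, the wing comparison called 47 of 9699 genes, which limits what it can show for any single gene. Genes below about 1 CPM in the salivary gland, such as phr6-4 and Fancl, rest on 1 to 101 counts.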

Other observations

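Values of 2 genes stood out within a group, in libraries that are part of the salivary comparison. In salivary wild-type replicate 2 the gene Fancl was at 1.84 CPM, against 0.486 and 0.226 CPM in the other wild-type libraries, and in the same library the gut markers summed to 5250 CPM, against 738 and 58.9 CPM. The gene phr6-4 had 1 count in salivary mutant replicate 3, against 13 and 7 in the other mutant libraries.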
